A study of Mus musculus with 12 samples.

Results

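The genes described are 9 of the enzymes and proteins that write, erase and read methylation of cytosine in DNA: the writers Dnmt1, Dnmt3a and Dnmt3b, the erasers Tet1, Tet2 and Tet3, and the readers Mbd1, Mbd2 and Mbd3. They were taken by gene name, 9 of the 28842 genes in the table, by a rule that uses no measured value, although the list was drawn up with earlier results of these data known. The libraries came from the prefrontal cortex of wild-type C57BL/6J male mice, an inbred laboratory strain. The saline group received saline from postnatal day 28 to day 42 and the cocaine group 15 mg/kg cocaine over the same days, the period of adolescence. Both groups had a pre-test on day 75, received 1 mg/kg cocaine before place preference training on days 76 and 77, and were tested, with tissue taken, on day 78, so the comparison is of adolescent exposure in adults that had all received cocaine in training. The series title is about DUSP1 and the response of adults to the drug. There were 6 libraries per group. Whether each library is 1 mouse is not said in the labels, and p-values then cover no more than the variation among the libraries, which may be technical.

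DNA methylation is laid down on cytosines, mostly where a C is followed by a G (a CpG). Dnmt1 copies the pattern onto the new strand after DNA replication, whereas Dnmt3a and Dnmt3b can methylate DNA that carried no mark. The Tet enzymes oxidise methylated cytosine to hydroxymethylcytosine and further forms, the first steps of its removal, and hydroxymethylcytosine is abundant in brain. Several proteins with a methyl-CpG binding domain attach to the mark. Mbd2 and Mbd3 are alternative subunits of the NuRD complex, which moves nucleosomes and removes acetyl groups from histones. Mbd3 itself binds methylated CpG weakly. In neurons Dnmt3a also methylates cytosines outside CpG sites after birth. The table measures messenger RNA only, so neither methylation nor protein level was observed.

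Total recovered reads were 16.7 to 19.9 M per library. The labels also carry a mesenchymal cell line that does not match the tissue. A time tag gives each library as day 0 or 5; it formed no groups here, and as a covariate it changed no member's direction or call. The excitatory neuron marker Slc17a7 stood at 300 to 422 FPKM (reads scaled to gene length and library total) in every library, whereas the mesenchymal genes Col1a1, Prrx1 and Postn reached at most 1.08, 0.616 and 0.169 FPKM. Of the 8 mesenchymal genes listed 2 were above a mean of 1 FPKM, Acta2 (4.65 to 19.2), a gene of vessel walls, and Thy1 (218 to 335), which neurons express too. Saline 5 stood apart by markers of choroid plexus and ependyma, whose 6 genes summed to 550 FPKM there and to at most 9.75 in any other library. Their summed range was 1.37 to 550 FPKM in saline and 1.29 to 8.07 in cocaine libraries. The part of that admixture in the differences below was not tested beyond leaving saline 5 out. In tissue of mixed cells, fewer cells of a type and less RNA per cell cannot be told apart.

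The start regions of the members are shown first, since they are themselves rich or poor in the CpG sites that these proteins act on. RefSeq windows of 300 bases (250 before to 50 after a start, GRCm38.p6) were used for 7 members. They numbered 11 in all, because Dnmt1 and Dnmt3a have 3 annotated starts each. No window of Mbd1 or Mbd2 was used, so the counts of windows and members below do not cover them. Below are the 100 bases before 4 of these starts, 5′ to 3′ on the strand of the gene, with every CpG in capitals: the most CpG-rich window of the set (Tet2), the distal start of Dnmt1, which is the poorest, and a de novo enzyme that is well expressed beside one that is barely expressed (Dnmt3a and Dnmt3b).
Tet2 (chr3:133544391-133544490, minus strand): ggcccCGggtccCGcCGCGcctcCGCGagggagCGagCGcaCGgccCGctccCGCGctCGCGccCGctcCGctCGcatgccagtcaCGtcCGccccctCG
Dnmt3a (chr12:3806880-3806979, plus strand): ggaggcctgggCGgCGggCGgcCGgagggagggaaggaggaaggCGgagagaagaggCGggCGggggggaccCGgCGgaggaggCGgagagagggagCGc
Dnmt3b (chr2:153649349-153649448, plus strand): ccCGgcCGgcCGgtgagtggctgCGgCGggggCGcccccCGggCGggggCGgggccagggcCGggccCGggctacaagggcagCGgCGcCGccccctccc
Dnmt1 distal start (chr9:20959889-20959988, minus strand): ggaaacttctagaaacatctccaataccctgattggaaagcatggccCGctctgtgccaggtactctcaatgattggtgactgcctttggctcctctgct
The Tet2 window held 57 CpG in 300 bases, a count reached by 0.152% of the 32851 windows of that length, whose median was 7. Dnmt3b had 30, and the window of Dnmt3a shown had 46. The distal Dnmt1 window had 2, while another of its starts, chr9:20952574-20952873, had 33. The usual mark of a CpG island is a GC content of at least 50% with an observed-to-expected CpG ratio of at least 0.6. It was met by 7 of the 11 windows, beside 33.5% of all windows. In 6 of the 7 members at least 1 window met it, and the share of all genes with such a window was not computed. The CG letters were counted on both strands at once, since CG reads the same on either. The table gives 1 value per gene, so the starts of a gene cannot be told apart in it.

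Per gene length the members spanned a wide range, and their order was the same in each of the 12 libraries. Mbd3 was the most abundant, with a median of 69.4 FPKM over the libraries (52.99 to 87.5). It was followed by Mbd2 at 12.9 FPKM (10.8 to 16.9), Dnmt1 at 8.92 (6.39 to 10.5) and Mbd1 at 6.12 (5.65 to 6.71). Dnmt3a stood at 5.20 FPKM (3.65 to 6.26), Tet3 at 4.38 (3.26 to 5.06) and Tet2 at 2.04 (1.31 to 2.48). Tet1 at 0.63 FPKM (0.408 to 0.783) and Dnmt3b at 0.128 (0.0572 to 0.173) were the lowest. The ranges of Dnmt1 and Mbd1, of Mbd1 and Dnmt3a, and of Dnmt3a and Tet3 overlapped between libraries, although within each library the first of each pair was above the second; the ranges of all other neighbours were apart. Tet3 was thus the leading eraser and Dnmt1 and Dnmt3a the leading writers. Dnmt3a, Tet1, Tet2 and Tet3 have exon lengths of 15457 to 16870 bases in the table, and per-length levels assume that all of those bases are transcribed.

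**Figure D1:**
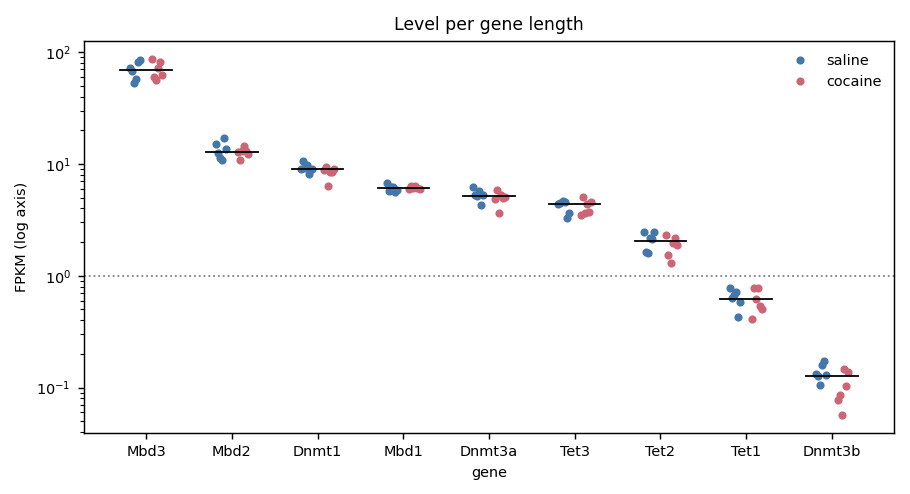
Level of each gene per gene length (FPKM, log axis) in the 6 saline and 6 cocaine libraries; each point is a library, each bar the median of all 12, and the dotted line the minimum mean FPKM of 1 for the test across genes. Mbd3 is highest and Dnmt3b lowest, and Tet1 and Dnmt3b lie under the line.

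No member differed between the groups past the threshold. In the limma fit 0 of the 7 members above the minimum FPKM, and 0 of the 9 with the unfiltered fit used for Tet1 and Dnmt3b, had an adjusted p or an unadjusted p under 0.05. Over all 13016 genes tested, 0% passed at the adjusted threshold (0 genes; 149 genes or 1.14% at an unadjusted p under 0.05; by edgeR over 16057 genes these counts were 0 and 253, by DESeq2 over 28842 genes 3 and 428). In 0 of 9 members were the groups apart with no overlap, which held for 0.0768% of all genes. By sign alone 7 of the 9 members were lower in cocaine libraries, where 46.3% of all genes tested and 50.3% of all genes in the unfiltered fit were. The median difference of the 9 members was -0.10 (all differences are mean log2(value + 1) in cocaine less that in saline libraries, a scale that understates the change of low genes), beside 0.01 for all genes tested. Writers had 3 of 3 lower, erasers 3 of 3 and readers 1 of 3. The adjusted p of every member was 1.00 in limma. It was 1.00 for each in the authors' deposited table, whose member values were almost identical to the DESeq2 fit made here.

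**Figure D2:**
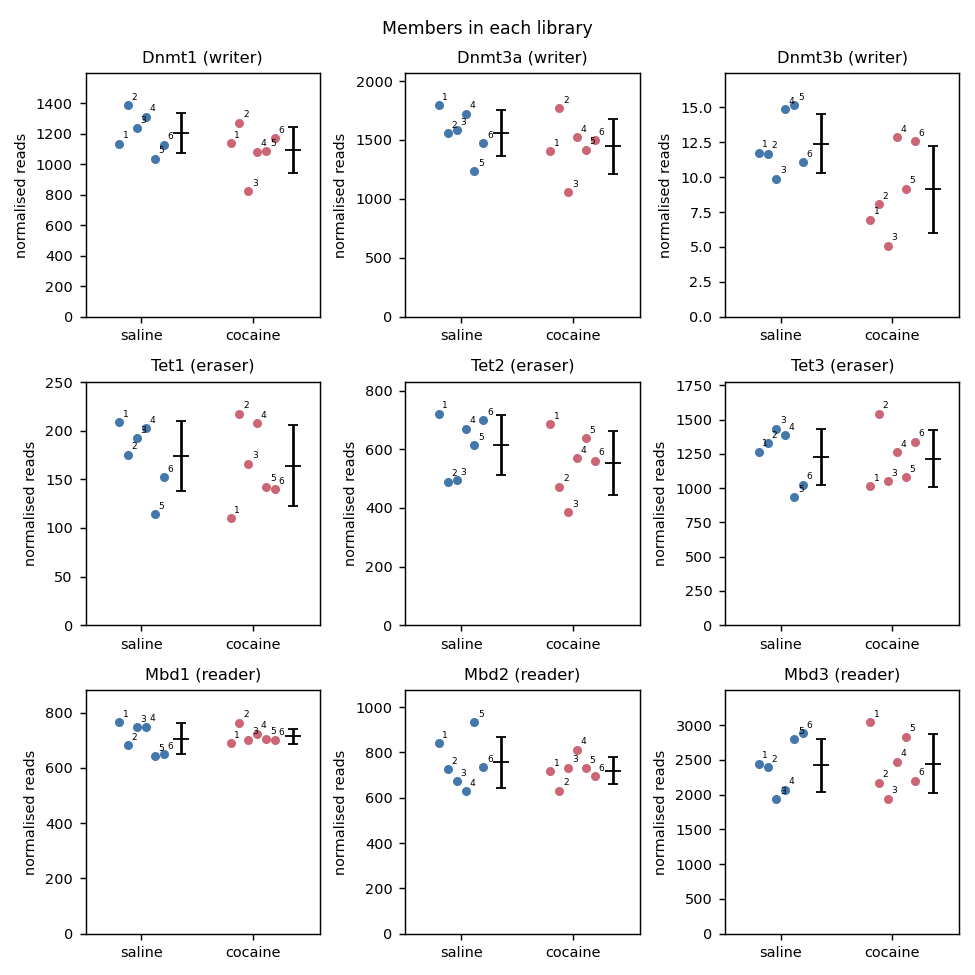
Normalised reads of each member by library (axes start at 0; numbers are replicate numbers; the bar is the mean with its SD, n = 6). In all 9 panels the saline and cocaine libraries overlap, and cocaine 3 is the lowest of the 12 libraries for Dnmt1, Dnmt3a, Dnmt3b and Tet2.

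Among the writers, Dnmt1 (ENSMUSG00000004099, minus strand of chromosome 9, 20907209 to 20959888, GRCm38) is the maintenance methyltransferase. Its normalised read count ranged from 1036 to 1388 in saline libraries with a median of 1185, and from 821 to 1272 in cocaine libraries with a median of 1110. The groups overlapped: 5 of 6 cocaine libraries lay below the saline median but 1, cocaine 3, below the lowest saline library. The means were 1205 ± 130 and 1094 ± 151 (SD, n = 6 each), a difference of -0.15 ± 0.11 (SE) with an exact permutation p of 0.216. The 95% interval of the fold was 0.773 to 1.06, so the fit does not separate a fall of that size from no change. Without cocaine 3 the cocaine mean was 1149 ± 78.1 (SD, n = 5) and the difference -0.06.

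Dnmt3a (ENSMUSG00000020661, plus strand of chromosome 12, 3806007 to 3914443), the de novo enzyme of mature neurons, ranged from 1236 to 1797 normalised reads in saline libraries (median 1569) and from 1058 to 1770 in cocaine libraries (median 1458). Cocaine 3 was again the lowest, followed by saline 5, and saline 1 and cocaine 2 were the highest, so each group held both ends. The means were 1560 ± 198 and 1445 ± 231 (SD, n = 6 each), with a difference of -0.12 ± 0.12 (SE; exact permutation p = 0.385; 95% interval of the fold 0.773 to 1.10). Without cocaine 3 it was -0.03, and without saline 5 -0.18. Of its 16642 exon bases 133 are shared with the antisense gene Dnmt3aos, whose reads cannot be told apart without strand. Dnmt3a is known to have a shorter form from an internal start, which the gene-level value does not resolve.

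Dnmt3b (ENSMUSG00000027478, plus strand of chromosome 2, 153649450 to 153687730), the de novo enzyme best known from early embryos, was near the limit of detection, with 9 to 15 reads in each saline and 5 to 13 in each cocaine library. Its normalised reads ranged from 9.88 to 15.2 in saline (median 11.7) and from 5.09 to 12.8 in cocaine libraries (median 8.63), and 4 of 6 cocaine libraries lay below the lowest saline library. This was the largest difference among the members, -0.45 ± 0.30 (SE), with an exact permutation p of 0.0584, not adjusted for the 9 members, and an unadjusted limma p of 0.152. Summed reads were 75 in saline (exact Poisson 95% interval 59.0 to 94.0) and 55 in cocaine libraries (41.4 to 71.6); these intervals overlap and cover counting error only. Over the alternatives other than leaving out a library the difference ran from -0.47 (pseudocount 0.5) to -0.31 (library weights), and from -0.55 without cocaine 4 to -0.31 without cocaine 3. With no variance trend its unadjusted limma p was 0.0484 (adjusted p = 1.00).

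Among the erasers, Tet1 (ENSMUSG00000047146, minus strand of chromosome 10, 62804570 to 62908996) ranged from 114 to 209 normalised reads in saline (median 184) and from 110 to 218 in cocaine libraries (median 154). Its libraries spread almost equally wide in both groups, 1.83 times from lowest to highest in saline and 1.97 times in cocaine. The difference was -0.10 ± 0.18 (SE; exact permutation p = 0.619), and it changed sign to 0.01 when cocaine 1, its lowest library, was left out.

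Tet2 (ENSMUSG00000040943, minus strand of chromosome 3, 133463679 to 133545139) ranged from 489 to 722 normalised reads in saline (median 642) and from 386 to 686 in cocaine libraries (median 566). Cocaine 3 and cocaine 2 lay below every saline library, and saline 2 and saline 3 were close above them. The means were 615 ± 102 and 552 ± 109 (SD, n = 6 each), a difference of -0.16 ± 0.15 (SE; exact permutation p = 0.338; 95% interval of the fold 0.718 to 1.11). Without cocaine 3 it was -0.06, and -0.06 with library weights too. Of its 16870 exon bases 43 are shared with the antisense gene Gm42567.

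Tet3 (ENSMUSG00000034832, minus strand of chromosome 6, 83362373 to 83459084), the most abundant eraser, ranged from 933 to 1433 normalised reads in saline (median 1296) and from 1013 to 1544 in cocaine libraries (median 1171). Both groups split into high and low libraries, with cocaine 2 the highest of all and saline 5 the lowest. The means were 1228 ± 203 and 1214 ± 206 (SD, n = 6 each), and the difference of -0.01 ± 0.13 (SE; exact permutation p = 0.922) had a 95% interval of the fold from 0.815 to 1.20.

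Of the readers, Mbd1 (ENSMUSG00000024561, plus strand of chromosome 18, 74267605 to 74282732), a repressor that binds methylated CpG, varied least. It ranged from 642 to 766 normalised reads in saline (median 715) and from 689 to 764 in cocaine libraries (median 703), so its highest library was 1.19 times its lowest. The means were 706 ± 55.2 and 714 ± 27.0 (SD, n = 6 each), with a difference of 0.02 ± 0.07 (SE; exact permutation p = 0.721). Its 95% interval of the fold, 0.912 to 1.13, was the narrowest of the 9.

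Mbd2 (ENSMUSG00000024513, plus strand of chromosome 18, 70568189 to 70626131), the methyl-binding subunit of NuRD, ranged from 630 to 934 normalised reads in saline (median 730) and from 632 to 811 in cocaine libraries (median 723). Saline 5, the library with choroid plexus transcripts, was its highest. The difference was -0.06 ± 0.10 (SE; exact permutation p = 0.548), and 0.00082 without saline 5.

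Mbd3 (ENSMUSG00000035478, minus strand of chromosome 10, 80392539 to 80399550), the alternative NuRD subunit, ranged from 1933 to 2879 normalised reads in saline (median 2420) and from 1938 to 3043 in cocaine libraries (median 2334). Saline 3 and cocaine 3 were almost equal at the bottom, and cocaine 1 was at the top. The means were 2419 ± 378 and 2441 ± 424 (SD, n = 6 each), a difference of 0.01 ± 0.13 (SE; exact permutation p = 0.948). With TMM scaling the sign of this small difference turned, at -0.00017.

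**Figure D3:**
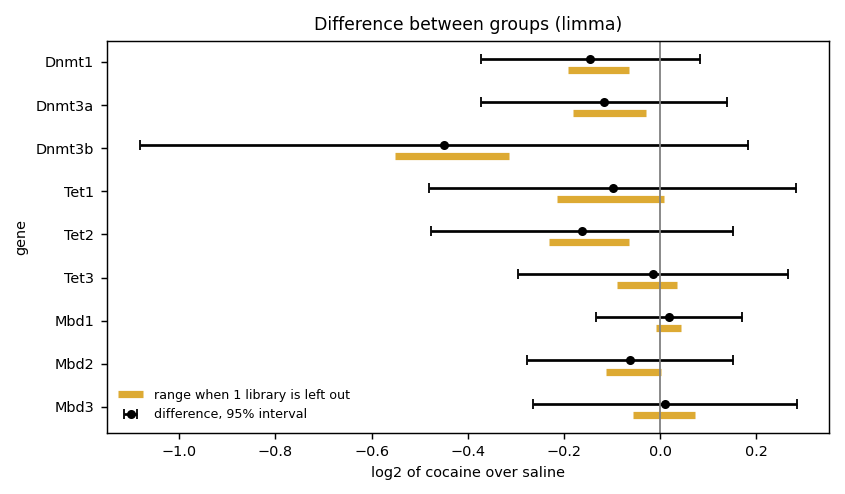
Difference between groups for each member (log2 of cocaine over saline): points with the 95% interval of the limma fit, and below each the range of the difference when 1 of the 12 libraries is left out. Every interval includes 0, and for Dnmt1, Dnmt3a, Dnmt3b and Tet2 the range stays on the lower side with its end nearest 0 reached without cocaine 3.

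Cocaine 3 was the lowest of the 12 libraries for Dnmt1, Dnmt3a, Dnmt3b and Tet2. Leaving it out therefore had to raise their differences, which became smaller in size. Other members moved without other libraries: Tet1 to 0.0071 without cocaine 1 and Mbd2 to 0.00082 without saline 5. In cocaine 3 the share of mitochondrial reads was 5.43% and that of the most abundant gene, mt-Co1, was 1.87%; the ranges over the other 11 libraries were 3.24% to 5.27% and 0.951% to 1.43%. Saline 5 had the next highest mitochondrial share, 5.27%, and was the library with the lowest Tet3 and Mbd1. The part of this composition in the member differences was not tested beyond leaving each library out.

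Several members varied together across the libraries of both groups. Correlations over the 12 libraries, with group means removed, were computed for the 21 pairs of the 7 members above the minimum FPKM. After adjustment over the 21, 4 pairs passed, all with a positive r. How often pairs of other tested genes would pass was not computed, so the count does not set the members apart. Among 11537 named genes, those with r above 0.9 to a member numbered from 7 (Mbd1) to 714 (Tet3). Dnmt3a and Tet3, the leading de novo writer and the leading eraser, had r = 0.77 (permutation p = 0.00361, adjusted 0.0379) and rho = 0.78 (permutation p = 0.00747, adjusted 0.0523). Without the 2 libraries farthest from the median of Dnmt3a, saline 5 and cocaine 3, r was 0.73. Tet3 and Mbd1 had r = 0.79 (permutation p = 0.00232, adjusted 0.0379) and rho = 0.71 (permutation p = 0.0210, adjusted 0.0631), and r was 0.70 without saline 5 and cocaine 1. For Dnmt3a and Mbd1 r was 0.70 (permutation p = 0.00555, adjusted 0.0385) and rho 0.82 (permutation p = 0.00224, adjusted 0.0470), with r = 0.83 without saline 5 and cocaine 3.

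Between Dnmt1 and Dnmt3a r was 0.81 (permutation p = 0.00733, adjusted 0.0385) and rho 0.62 (permutation p = 0.0436, adjusted 0.102), but r dropped to 0.36 without saline 5 and cocaine 3, so this relation rests on those libraries. The count of pairs past the threshold was itself unstable: it was 0 when saline 3, saline 4, saline 5, saline 6, cocaine 2 or cocaine 4 was left out, 2 without cocaine 6, and 6 without cocaine 3. In the other direction, Tet3 and Mbd3 had r = -0.67 (permutation p = 0.0269, adjusted 0.0806; rho = -0.67, permutation p = 0.0273, adjusted 0.0716; r = -0.52 without saline 5 and cocaine 1), which did not pass, passed at -0.93 without cocaine 3 (adjusted permutation p = 0.00325) and turned positive once a measure of long against short genes, described next, was removed.

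The levels of Tet3, Tet1 and Mbd3 moved with the balance of long and short genes in each library, a measure chosen after the values were seen. A long gene score was taken as the mean log2 deviation of the 2181 tested genes with exon lengths of at least 8000 bases less that of the 2589 tested genes under 2000 bases; Dnmt3a, Tet2 and Tet3 are among the former and Mbd3 among the latter, at 1987 bases. The score ranged from -0.40 (saline 5) to 0.39 (saline 4) in saline and from -0.36 (cocaine 1) to 0.35 (cocaine 2) in cocaine libraries and did not separate the groups (exact permutation p = 0.803). Over the 12 libraries, in a family of 18 relations (9 members by this score and an oligodendrocyte score), Tet3 had r = 0.95 with it (permutation p = 4e-05, adjusted 0.00072) and rho = 0.96 (permutation p = 7e-05, adjusted 0.00126). With the 2 libraries at the extremes of the score left out, r was 0.92. By Pearson's r 3 of the 9 members passed after adjustment (Tet3, Tet1 and Mbd3), and by Spearman's rho 1, Tet3. The share of all tested genes that would pass was not computed. The score lay along the first principal component of those genes, which held 45.7% of their variance, so these counts do not set the members apart.

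Mbd3 ran the other way, with r = -0.83 (permutation p = 0.00252, adjusted 0.0227), rho = -0.78 (permutation p = 0.00557, adjusted 0.0501) and r = -0.75 without the extremes. Tet1, at 15457 bases, had r = 0.78 (permutation p = 0.00497, adjusted 0.0298), rho = 0.66 (permutation p = 0.0286, adjusted 0.0736) and r = 0.60 without them. Dnmt3a, at 16642 bases, had r = 0.58 (permutation p = 0.0538, adjusted 0.138) and rho = 0.69 (permutation p = 0.0230, adjusted 0.0736), with r = 0.47 without the extremes, and did not pass. Tet2, the longest member, did not pass either and had r = -0.45 (permutation p = 0.150, adjusted 0.269) and rho = -0.43 (permutation p = 0.184, adjusted 0.331), with r = -0.39 without the extremes. Members in neither length class followed the score too without passing. Mbd1 had r = 0.75 (permutation p = 0.0147, adjusted 0.0530) and rho = 0.66 (permutation p = 0.0455, adjusted 0.102). Mbd2 had r = -0.68 (permutation p = 0.0278, adjusted 0.0834) and rho = -0.76 (permutation p = 0.00923, adjusted 0.0554). For Dnmt1 r was 0.55 (permutation p = 0.0700, adjusted 0.158) and rho 0.67 (permutation p = 0.0272, adjusted 0.0736). After the score was regressed out, 0 of the 21 pairs passed the threshold. The pairs with the smallest p were then Dnmt1 and Mbd3, at r = 0.91 from -0.03 before, and Dnmt3a and Tet3, at r = 0.85 (adjusted permutation p = 0.0795 for each). Dnmt3a and Tet2 stood at 0.81 (from 0.32; adjusted permutation p = 0.113) and Dnmt3a and Mbd3 at 0.83 (from -0.10; adjusted permutation p = 0.120). Tet3 and Mbd3 turned from -0.67 to 0.66 (adjusted permutation p = 0.188). For the values with the score removed, neither rho nor r without extreme libraries was computed. Cocaine 3 was the lowest library for Dnmt1, Dnmt3a and Tet2 and the second lowest for Mbd3. Its part in these r values was not tested.

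**Figure D4:**
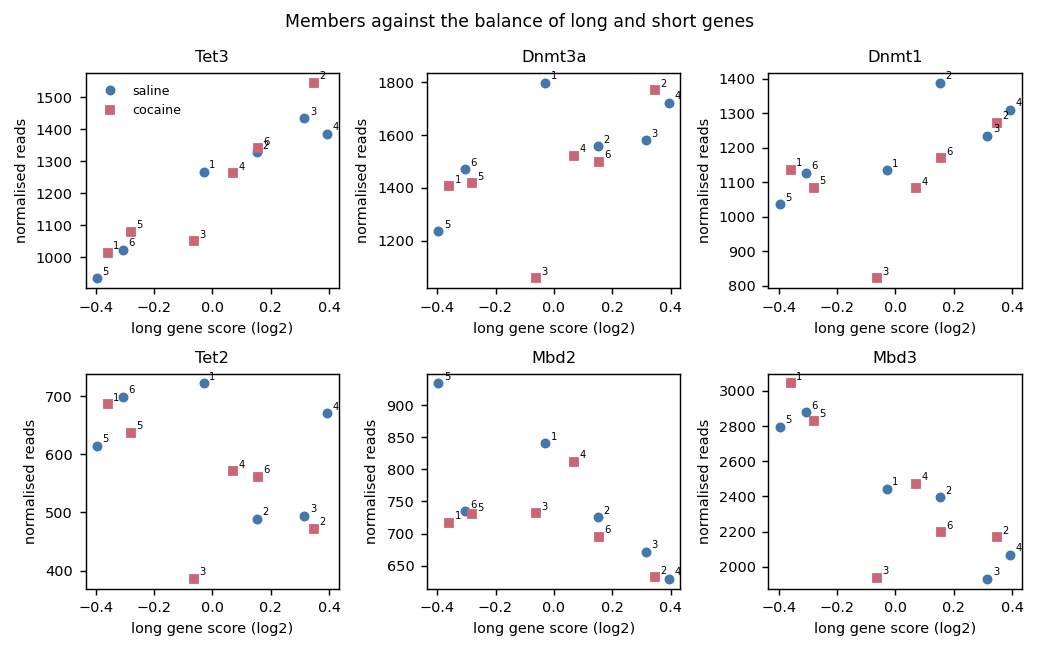
Normalised reads of 6 members against the long gene score of each library (mean log2 deviation of long less short genes; numbers are replicate numbers; the vertical axes do not start at 0). Tet3 is highest where the score is high and Mbd3 where it is low, both groups span the range of the score, and cocaine 3 lies below the other libraries for Dnmt1, Dnmt3a and Tet2.

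The oligodendrocyte score, the mean log2 deviation of 12 myelin genes, spanned -1.51 to 1.23 in saline and -1.04 to 0.96 in cocaine libraries (exact permutation p = 0.734). By Pearson's r Mbd2 was the only member that passed with it, at r = 0.79 (permutation p = 0.00843, adjusted 0.0379). Its rho was 0.73 (permutation p = 0.0156, adjusted 0.0704), and r was 0.64 without the 2 extremes of the score. Mbd2 also ran against the long gene score, at r = -0.68 and rho = -0.76, which did not pass. Whether the relations of Mbd2 with the oligodendrocyte and long gene scores overlap was not tested. All 12 of the myelin markers were lower in cocaine libraries, as were 46.3% of all genes, with summed levels of 356 to 2641 FPKM in saline and 539 to 2190 FPKM in cocaine libraries. With the oligodendrocyte score as a covariate the Mbd2 difference was -0.04. Of 9 markers of dividing cells, in which Dnmt1 is known to act, 2 had a mean of at least 1 FPKM, Pcna (15.7 to 23.6) and Mcm5 (1.18 to 1.99), while Mki67 and Top2a reached at most 0.576 and 0.497 FPKM. The 9 summed to 18 to 28.6 FPKM in saline and 21.3 to 26.2 in cocaine libraries.

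The genes whose library-to-library pattern was closest to each member, by Pearson r over the 12 libraries with group means removed among 11537 named genes, were Slc8a2 for Dnmt1 (r = 0.99), Mllt6 for Dnmt3a (0.96), Meg3 for Tet2 (0.95), Zfp106 for Tet3 (0.99), Pogz for Mbd1 (0.94), Penk for Mbd2 (0.98) and H2afj for Mbd3 (0.98). These are maxima over all those genes and carry no test. Tet3 had 714 genes with an r above 0.9 and Mbd3 328, whereas Tet2 had 17 and Mbd1 7.

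Companion genes of the pathway were read from a list of 38, of which 34 were above the minimum FPKM. Of these 16 were higher and 18 lower in cocaine libraries, with a median of -0.0034 (log2), beside 46.3% lower among all genes tested; 0 passed the adjusted threshold and 1 had an unadjusted p under 0.05, against 1.14% of all genes. That gene was Gadd45b, a stress and activity-induced gene linked to active demethylation. It ranged from 196 to 306 normalised reads in saline and from 280 to 459 in cocaine libraries, so the groups overlapped. Gadd45b had means of 274 ± 40.2 and 351 ± 76.6 (SD, n = 6 each), a difference of 0.34 ± 0.15 (SE, limma unadjusted p = 0.0348, adjusted p = 1.00). Its relative Gadd45a differed by 0.27 ± 0.18 and Smug1, a uracil DNA glycosylase, by 0.17 ± 0.14. Of the 10 measured genes of demethylation and repair 7 were higher, with a median of 0.08.

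Cofactors of the writers had 3 of 5 higher, with a median of 0.04: Mat2b, which regulates the making of the methyl donor, differed by 0.08 ± 0.07 (SE), Ahcy, which clears its product, by 0.06 ± 0.09, and Uhrf2, a relative of the Dnmt1 recruiter Uhrf1, by 0.04 ± 0.10. Of the genes listed as other readers 5 of 6 were lower, with a median of -0.07. Whether each of them binds the mark was not measured here. Mbd4, a glycosylase that repairs mismatches at CpG sites, differed by -0.11 ± 0.11, Mbd6 by -0.16 ± 0.20 and Mbd5 by -0.10 ± 0.16. Among the 13 NuRD subunits 8 were lower, with a median of -0.04; the histone-binding Rbbp7 differed by 0.14 ± 0.12, the remodeller Chd4 by -0.09 ± 0.10 and Cdk2ap1 by 0.07 ± 0.10.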

How the data were processed

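RNA was sequenced from prefrontal cortex of 12 mouse libraries, 6 per group, assigned by their treatment label. The submitters' processing notes name HISAT2 2.0.5 and the human build hg38. How reads were counted, with or without strand, and on which annotation is not given in the sources used here. The file's gene IDs are mouse IDs and its coordinates were read as GRCm38, since 28061 of 28842 genes had the same start and end in GENCODE M21.

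The authors deposited 1 table, and its values per library are a signal that the authors made from counts of reads scaled by a size factor for each library and not divided by gene length, although the table is named for FPKM. Whole reads were recovered from 100% of the values in every library, within a tolerance of 0.01 read. In cocaine 1 and 2 a read was worth 0.994 and 1.01, so near 1 that the scaling is harder to tell from unscaled values there. The authors' log2 fold change, p-value and adjusted p-value columns were made by the authors with a test that the file headers do not name. For the 9 members they were almost identical to DESeq2 on recovered reads. For Dnmt1 the difference was -0.1396 and the unadjusted DESeq2 p 0.2196, as in the deposited columns. FPKM was computed here from value, gene length and column sum.

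The main test was limma 3.58.1 in R 4.3.3 (variance trend, two-sided, no covariates) on log2(value + 1) over the 13016 genes whose mean FPKM was 1 or more, with Benjamini-Hochberg adjustment and a threshold of 0.05. Dnmt3b and Tet1, under that minimum, were taken from the same fit with no filter (28842 genes). Single genes also had an exact permutation test over all 924 splits. Correlations had 100000 resamples within groups, and the scores they use are means of log2 deviations. Every member was named, with the 3 companion genes of smallest p per group and the most similar gene per member. The members, gene lists and tests were chosen with earlier results of these data known. The alternatives were edgeR 4.0.16 and DESeq2 1.42.0 on recovered reads, other scalings, filters, pseudocounts, covariates and leaving out each library. The replicate numbers were not taken to pair the libraries in the main test. Promoter windows are RefSeq's on GRCm38.p6.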

Additional observations from a re-analysis of the deposited data

Results flagged for a closer look

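Dnmt1 in the cocaine libraries held 1 value apart from the others. Cocaine 3 had 821 normalised reads and the next lowest library 1082. The gap was 0.631 of the range of the group on the log2 scale, just past the limit of 0.625 for a group of 6. This was the single such value among 18 groups of 6 libraries examined (9 members in 2 groups). Chance gives about 1 such value in 20 groups, so this count is near what chance gives.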

How the results depend on the processing

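Under the alternatives other than leaving out a library, 0 members passed the adjusted threshold, and Dnmt1, Dnmt3a, Dnmt3b, Tet1, Tet2, Mbd1 and Mbd2 kept their direction. Mbd3 turned to -0.00017 with TMM scaling and to -0.019 with the long gene score as a covariate, and Tet3 to 0.019 with that score; the cause was not tested. Leaving out 1 library in turn gave ranges of -0.21 to 0.0071 for Tet1, -0.090 to 0.034 for Tet3, -0.0081 to 0.043 for Mbd1, -0.11 to 0.00082 for Mbd2 and -0.057 to 0.073 for Mbd3, whereas Dnmt1 (-0.19 to -0.06), Dnmt3a (-0.18 to -0.03), Dnmt3b (-0.55 to -0.31) and Tet2 (-0.23 to -0.06) stayed lower. From 6 to 8 of the 9 members were lower in those fits.

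All genes past the adjusted threshold numbered 3 by DESeq2 and 0 in every other fit. At an unadjusted p under 0.05 there were 406 at a mean FPKM of at least 0.1, 715 with no filter and 49 at a minimum of 5, where other numbers of genes were tested, and 322 with library weights, 423 with the first component and 469 with the long gene score, over the same genes. There were 253 by edgeR over 16057 genes and 428 by DESeq2 over 28842. The number of correlated pairs ran from 0 to 6 without 1 library and was 0 with the long gene score removed, where Tet3 and Mbd3 turned from -0.67 to 0.66; the pairs did not include Dnmt3b or Tet1. With the replicate number as a block the count at an unadjusted p under 0.05 was 150, against 149, and no call changed. For Tet2 the SE in that fit was 0.086 and the unadjusted limma p 0.0888, against 0.147 and 0.285 without the block. Same-numbered libraries had correlations of their deviations from -0.40 to 0.43, over 0.1 in 2 of 6 pairs. Of the 6 saline libraries 2 correlated best with their own number. These values neither show nor exclude a pairing by number. Depth limits Dnmt3b most, at 5 to 15 reads per library. The long gene score was added after the data were seen.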

Other observations

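The precision of the member comparisons changed with the long gene score in the fit, an alternative added after the data were seen. For Tet3 the standard error of the difference went from 0.13 to 0.05 (log2) and for Mbd3 from 0.13 to 0.07, with differences of 0.02 and -0.02, while for Dnmt1 the difference was -0.13 with the score and -0.15 without it. The score lay along the first principal component of the tested genes with group means removed, which held 45.7% of their variance (r = -0.99 across libraries, the sign of the component being arbitrary, and both being summaries of the same genes).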
